A study of Mus musculus with 6 samples.

Results

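Imprinted genes, which are transcribed mainly or wholly from the chromosome inherited from 1 parent, were examined in islet RNA of mice with and without the farnesoid X receptor (FXR, gene Nr1h4). A list of 41 imprinted genes was taken, and all 41 were found by symbol among the 19342 genes of the count table. By textbook assignment, the list holds 24 genes that are expressed from the paternal chromosome, 16 from the maternal chromosome, and Gnas, which uses either by promoter. Whether each assignment holds in islets was not tested. Expression was measured by sequencing of poly(A) RNA from pancreatic islets that were isolated with collagenase P from mice aged 3 months. There were 3 libraries from wild-type mice (FXR+/+, 1 female and 2 male) and 3 from FXR knockout mice on C57Bl/6 (FXR-/-, 1 female and 2 male). No Cre driver and no drug treatment is named. The male libraries of a genotype are numbered 1 and 2 in the labels, and the number of animals in each library was not given in the sources used here, so p-values measure the spread between these libraries.

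Imprinting is laid down by DNA methylation in the egg or the sperm, and is then copied in the cells of the offspring. Imprinted genes lie in clusters, each ruled by a control region that is methylated on 1 parental chromosome, and most clusters hold both protein-coding genes and a long non-coding RNA of the opposite parental origin. Many paternally expressed members promote growth, such as the insulin-like growth factor Igf2, and several maternally expressed members restrain it, such as Igf2r, which clears IGF2, Grb10, an adaptor that damps insulin receptor signalling, and the cell cycle inhibitor Cdkn1c. In islets the family is known from transient neonatal diabetes, in which PLAGL1 is overexpressed, from focal hyperinsulinism with loss of CDKN1C, and from mouse work on neuronatin and Rasgrf1 in beta cells. Gene counts add the reads of both parental chromosomes, so a level here is the total over both alleles and does not show whether imprinting was kept or lost. In whole islets, fewer cells of a type and less RNA per cell cannot be told apart.

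The maternally expressed RNAs Meg3, Rian and Mirg of the Dlk1-Dio3 domain on chromosome 12 are also host transcripts of miRNAs, which act on other transcripts through their seed. In RefSeq (GRCm38.p6), 18 miRNA hairpins lay on the plus strand inside the GENCODE vM21 spans of these 3 genes, 14 of them in Mirg (chr12:109729764-109749460), and 35 mature miRNAs with 34 different seeds were listed within the same spans. The mature miRNAs that lie within GENCODE exons of Meg3 and Mirg are shown because Mirg is 1 of the members with an unadjusted p under 0.05 for genotype below. The seed, bases 2 to 8, is in capitals.
miR-1906: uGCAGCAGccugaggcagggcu
miR-770-5p: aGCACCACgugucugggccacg
miR-770-3p: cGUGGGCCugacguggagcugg
miR-134-5p: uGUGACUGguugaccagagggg
miR-134-3p: cUGUGGGCcaccuagucacc
miR-485-3p: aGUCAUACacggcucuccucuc
miR-377-5p: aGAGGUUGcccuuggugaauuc
miR-377-3p: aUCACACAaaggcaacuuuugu
miR-410-5p: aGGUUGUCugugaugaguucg
miR-410-3p: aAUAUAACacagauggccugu
miR-3072-3p: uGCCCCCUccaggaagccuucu
The single seed shared by a pair was that of miR-453 and miR-496a-5p, both within Mirg.
miR-453: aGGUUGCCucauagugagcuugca
miR-496a-5p: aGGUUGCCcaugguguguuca
Poly(A) libraries do not measure these short mature forms. The 14 hairpins listed as genes held between 1 and 81 reads each over all 6 libraries, at most 22 in a library, so the RNA of this locus was read through its long hosts.

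The libraries held 20629306 to 30139235 gene counts, of which the 41 members took 0.457% to 0.583%. Nr1h4 was read 333, 274 and 386 times in FXR+/+ islets and 140, 145 and 138 times in FXR-/- islets, so reads of the targeted gene remained in every FXR-/- library. The log2 fold change was -1.07 ± 0.16 (SE, adjusted p = 0.217 with edgeR, 0.0441 with the replicate block and 8.6e-05 with DESeq2). The main edgeR fit thus did not call the targeted gene itself, which limits what can be read from a member that did not pass. Beta cell markers summed to 186872 to 271733 counts per 1000000 (CPM, of the library size after TMM scaling). Acinar markers, which mark the exocrine tissue around islets, ranged from 41091 to 124563 CPM in FXR+/+ and from 59030 to 140980 in FXR-/- libraries (17 genes, none at 0). Both male 1 libraries held the most acinar RNA of their genotype, and each FXR-/- library held more than the FXR+/+ library of the same number. Endothelial markers (6 genes, none at 0) did not overlap between genotypes, at 412 to 508 CPM in FXR+/+ and 521 to 829 in FXR-/-, nor did Schwann and neural markers (5 genes, none at 0), at 11.1 to 17.2 and 17.5 to 20.1 CPM. The marker lists of all other cell types examined overlapped between genotypes, and 15.4% of all genes tested did not overlap. The part of the endothelial or the neural list in the genotype differences below was not tested.

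Of the 41 members, 34 passed the filter on low counts. The other 7 had at most 7 counts in any library. These were the growth-restraining non-coding RNA H19 (8 counts over all 6 libraries), the thyroid hormone inactivating deiodinase Dio3 (2 counts), the placental growth regulator Phlda2 (3), the Prader-Willi domain genes Magel2 (15), Peg12 (13), Snurf (10) and Snrpn (2). A count of 0 allows up to 3 counts in a library, which is 0.0947 to 0.158 CPM at these depths. H19 and Dio3 were thus at or below this floor in islets of both genotypes. For Snurf the counts cannot be read in the same way, because all 216 of its GENCODE exon bases are also exon bases of Snrpn and reads on shared bases may have been counted for neither. Snrpn itself has 2159 exon bases in GENCODE, most of them not shared with Snurf. The deposited exon table differs from these models, with 0 exon bases for Snrpn and 777 for Snurf. The cause of the low Snrpn counts was not tested.

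To compare levels between members, CPM was divided by the length of the annotated exons in kilobases. Gnas, which encodes the stimulatory G protein subunit through which glucagon and incretin receptors raise cyclic AMP, had the highest level, at 115, 105 and 104 CPM per kb in the FXR+/+ libraries and 127, 146 and 126 in the FXR-/- libraries. Peg3, a paternally expressed zinc finger protein, followed with 75.0, 89.9 and 94.4 CPM per kb in FXR+/+ and 87.2, 69.6 and 73.7 in FXR-/-. The non-coding RNA Meg3 came next with 58.9, 69.2 and 73.0 in FXR+/+ and 62.9, 54.0 and 59.0 in FXR-/-. With the GENCODE exon lengths, Gnas did not overlap with Peg3 over the 6 libraries. Peg3 and Meg3 overlapped, so the order of Peg3 and Meg3 is not resolved beyond the spread. The deposited exon table lists 8171 bases for Gnas and 6624 for Peg3, instead of 11186 and 13324. With those lengths Gnas still had the highest mean, but its libraries overlapped with those of Peg3. Gnas, Peg3 and Meg3 together took 66.4% to 69.6% of all counts of the 41 members.

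Nnat (neuronatin), a small membrane protein of the endoplasmic reticulum, followed, with a mean of 43.6 CPM per kb and a range of 33.7 to 56.9. With the GENCODE exon lengths it overlapped with Meg3 above it and not with Rian below it. The next members overlapped with their neighbours in the order. They were Rian, the snoRNA host of the Dlk1-Dio3 domain (mean 25.2 CPM per kb), Nap1l5, a nucleosome assembly protein-like retrogene (25.1), H13, a signal peptide peptidase (21.6), Blcap (19.7), the translation regulator Impact (18.5) and Igf2r (14.3). In all, 9 members lay in the highest 10% of the 18565 genes with a length and 22 of 41 lay above the median gene. Of the 10 highest members, 8 stayed among the 10 highest when the exon lengths of the deposited exon table were used, where Ndn and Commd1 took the places of H13 and Igf2r. With those lengths Rian, at 3579 exon bases instead of 18234, stood above Meg3 and Nnat. The place of Rian in the order thus depends on the exon length used.

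**Figure D1:**
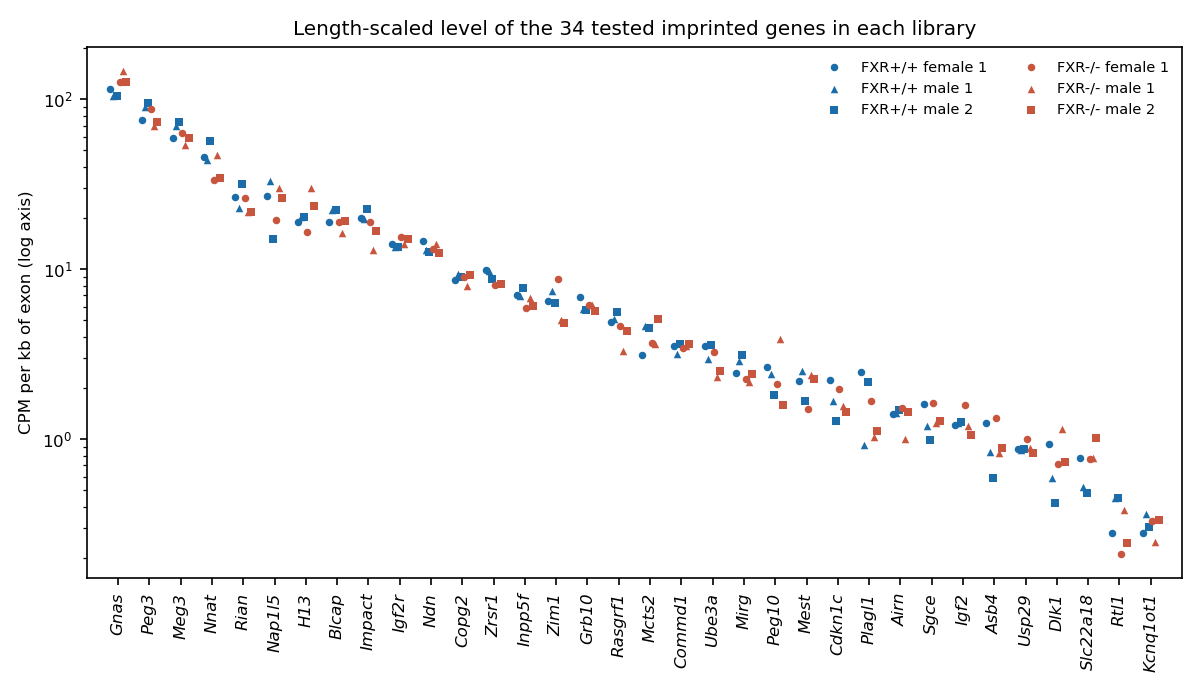
Length-scaled level (CPM per kb of exon, log axis) of the 34 tested imprinted genes, ordered by mean, with 1 point per library, in blue for FXR+/+ and red for FXR-/-. Gnas stands highest at 104 to 146 CPM per kb, and Kcnq1ot1 is lowest of the genes drawn with a mean of 0.310.

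Among the members below these, the growth factor gene Igf2 had 6.90, 7.14 and 7.17 CPM in FXR+/+ and 9.07, 6.84 and 6.06 in FXR-/- libraries, and thus a mean of 1.26 CPM per kb, while Grb10 stood at 6.06 CPM per kb. Plagl1, the zinc finger gene of transient neonatal diabetes, varied most between libraries of the tested members, with a coefficient of variation of 41.9%. Commd1, the copper handling gene that hosts Zrsr1, varied least with 5.21%, followed by Copg2 with 5.60% and Igf2r with 5.76%. Dlk1, a Notch-like ligand, varied 2.75-fold between its lowest and highest library, and the retrotransposon-derived Peg10 varied 2.43-fold.

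The comparison of genotypes asked whether islets without FXR differ in the level of imprinted genes. No member passed an adjusted p of 0.05 with edgeR, where 0 of 14619 genes did (0%), and none passed with DESeq2, which called 170 genes (1.16%), or with the replicate block, which called 23 (0.157%). At an unadjusted p under 0.05, 7 of 34 members passed, which is 20.6% beside 10.3% of all genes tested, and all 7 were lower in FXR-/- islets, a direction that 4.15% of all genes took at that threshold. These were Nnat, Impact, Rasgrf1, Ube3a, Mirg, Inpp5f and Zrsr1. With the replicate block the share was 8 of 34 members beside 16.1% of all genes, and with DESeq2 it was 8 of 34 beside 9.1%, with Gnas as the 1 that was higher. Over the 34 members the median log2 fold change was -0.05, beside 0.01 over all genes. In FXR-/-, 12 members were higher and 22 lower, beside 7537 higher and 7082 lower of all genes. With scaling to library size alone, 8 members were higher and 26 lower. In that fit the median of all genes was itself -0.09, so the whole table was shifted down.

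Impact, which restrains the stress kinase GCN2 and so keeps translation going, had 102, 102 and 116 CPM in FXR+/+ and 97.5, 66.1 and 85.9 in FXR-/- libraries. The genotypes did not overlap, and the male 1 library was the lowest of the FXR-/- group. The log2 fold change was -0.37 ± 0.14 (SE, adjusted p = 0.457). Rasgrf1 (chr9:89909508-90026979), a Ras exchange factor linked to beta cell mass, likewise did not overlap, with 53.8, 56.5 and 62.0 CPM in FXR+/+ and 51.0, 36.6 and 47.9 in FXR-/-, at -0.35 ± 0.13 (adjusted p = 0.457). For both genes the female libraries of the genotypes lay close together, with 102 against 97.5 CPM of Impact and 53.8 against 51.0 CPM of Rasgrf1. Without the FXR-/- male 1 library the log2 fold changes were -0.23 for Impact and -0.21 for Rasgrf1, and with exon counts summed per gene that of Rasgrf1 was -0.16.

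Nnat (chr2:157560078-157562525, plus strand, RefSeq span on GRCm38.p6) is transcribed from an intron of Blcap, on the opposite strand. Nnat had 83.9, 80.4 and 104 CPM in FXR+/+ and 61.6, 86.0 and 62.6 in FXR-/-, so the male 1 library of FXR-/- lay within the FXR+/+ range while the other two lay below it (-0.36 ± 0.14, adjusted p = 0.474). Blcap, a small transmembrane protein, had 57.6, 68.2 and 67.7 CPM in FXR+/+ and 57.4, 49.9 and 58.4 in FXR-/-, and did not pass (-0.22 ± 0.10, adjusted p = 0.487). The ratio of Nnat to Blcap counts was 1.39 ± 0.19 in FXR+/+ and 1.29 ± 0.38 in FXR-/- (SD, n = 3 each), and the ratios overlapped.

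Ube3a (chr7:59228750-59310837), the maternally expressed ubiquitin ligase of Angelman syndrome, had 73.0, 61.0 and 74.1 CPM in FXR+/+ and 67.1, 48.0 and 52.0 in FXR-/- (-0.33 ± 0.11, adjusted p = 0.432). The groups overlapped through the female FXR-/- library, which lay above the male 1 FXR+/+ library, and without the FXR+/+ male 2 library the log2 fold change was -0.21. Of the Ube3a exon bases, 8.74% are also exons of the antisense RNA Snhg14, and since no strand-marking step is named for these libraries, reads there cannot be assigned to either. Ndn (necdin), a growth suppressor of the same Prader-Willi and Angelman domain, was at 54.0, 47.6 and 46.8 CPM in FXR+/+ and 48.6, 51.6 and 45.7 in FXR-/-, with a log2 fold change of -0.02 ± 0.09.

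Zrsr1 (chr11:22972005-22976496), a splicing factor retrogene in an intron of Commd1, showed the tightest FXR-/- values, with 36.3, 37.3 and 36.6 CPM beside 44.5, 43.6 and 39.6 in FXR+/+. The genotypes did not overlap (-0.21 ± 0.08, adjusted p = 0.466). Its host Commd1 was at 20.9, 18.7 and 21.5 CPM in FXR+/+ and 20.4, 21.1 and 21.6 in FXR-/- (0.05 ± 0.10). Zrsr1 and Commd1 share 412 exon bases on opposite strands, 9.17% of those of Zrsr1, and reads there cannot be assigned to either. Inpp5f (chr7:128611181-128696436), a phosphoinositide phosphatase, had 58.9, 57.7 and 64.2 CPM in FXR+/+ and 49.4, 56.2 and 50.8 in FXR-/-, also without overlap (-0.21 ± 0.08, adjusted p = 0.472). In all, 6 of 34 members did not overlap between genotypes, beside 15.4% of all genes, namely Impact, Rasgrf1, Mirg, Zrsr1 and Inpp5f on the lower side and Gnas on the higher.

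**Figure D2:**
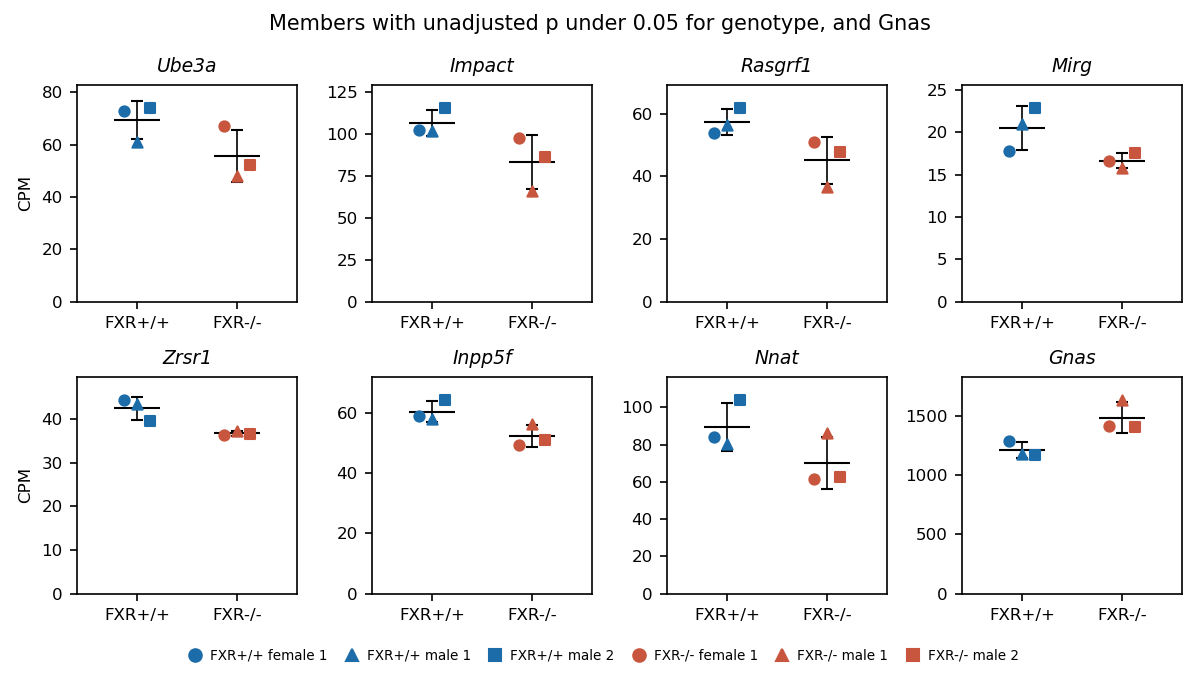
CPM in each library of the 7 members with an unadjusted p under 0.05 for genotype, and of Gnas, with the mean and SD (n = 3) as bars. The FXR-/- mean is the lower one in 7 panels and the higher one for Gnas, and none of the 8 genes passed an adjusted p of 0.05.

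Acinar RNA was higher in each FXR-/- library than in its same-numbered control, so the fit was repeated with the acinar level as a term. All 7 members kept a lower value in FXR-/-, at -0.19 to -0.31, and 1 of the 7, Zrsr1 (-0.26 ± 0.09), had an unadjusted p under 0.05 (adjusted p = 0.542). This 1 of 34 members (2.94%) stood beside 7.71% of all genes in that fit, so the share of members was below that of all genes, where it had been above it without the term. The added term leaves fewer residual degrees of freedom than the main fit. Acinar level also partly followed genotype in these libraries, so their parts cannot be fully told apart. No member passed an adjusted p of 0.05 with the term, beside 0.041% of all genes. When both male 1 libraries, the richest in acinar RNA, were left out, 2 members passed an adjusted p of 0.05, beside 235 of all genes (1.59%), and 6 had an unadjusted p under 0.05 (17.6% beside 15.3%). The 2 were Nnat at -0.60 ± 0.11 (adjusted p = 0.0268) and Plagl1 at -0.77 ± 0.15 (adjusted p = 0.0340), in a fit of 4 libraries with 1 residual degree of freedom. In the full fit Plagl1, with 19.5, 7.19 and 16.98 CPM in FXR+/+ and 13.04, 7.99 and 8.71 in FXR-/-, had a log2 fold change of -0.55 ± 0.28 (adjusted p = 0.503). In both genotypes the male 1 library was its lowest.

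In the Dlk1-Dio3 domain, Mirg (chr12:109734981-109749458 in RefSeq, which starts downstream of the GENCODE span given above) had 17.8, 20.9 and 22.9 CPM in FXR+/+ and 16.6, 15.8 and 17.5 in FXR-/-, without overlap (-0.30 ± 0.11, adjusted p = 0.457). Its fellow maternal RNAs had lower means as well, and neither passed. Meg3 had 1066, 1252 and 1321 CPM in FXR+/+ and 1138, 976 and 1067 in FXR-/- (-0.19 ± 0.15, adjusted p = 0.623), and Rian had 485, 415 and 577 in FXR+/+ and 481, 397 and 396 in FXR-/- (-0.22 ± 0.14, adjusted p = 0.575). The value of Rian rested on the FXR+/+ male 2 library, without which it was -0.042, and was -0.063 with the acinar term. That of Meg3 was -0.12 without the FXR-/- male 1 library and -0.33 without either female library. The ratio of Mirg to Meg3 counts was 0.0169 ± 0.0004 in FXR+/+ and 0.0157 ± 0.0010 in FXR-/- (SD, n = 3 each). These ratios did not overlap, and the exact 2-sided permutation p of 0.1 is the smallest that 3 against 3 libraries allow (0.5 adjusted over 5 ratios). The ratio of Rian to Meg3 was 0.408 ± 0.067 and 0.400 ± 0.026, with overlap.

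The paternally expressed protein-coding genes of the domain were much lower. Dlk1 had 5.28, 3.32 and 2.37 CPM in FXR+/+ and 4.01, 6.52 and 4.17 in FXR-/- (0.47 ± 0.33, adjusted p = 0.595). Rtl1, a retrotransposon-derived gene that is transcribed opposite to several miRNAs of the domain, had 1.79, 2.87 and 2.87 CPM in FXR+/+ and 1.34, 2.42 and 1.56 in FXR-/- (-0.51 ± 0.24, adjusted p = 0.492). Its counts, 33 to 91 in a library, are few, both groups overlapped, and the difference was -0.32 without the FXR-/- male 2 library.

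In the Peg3 domain, Peg3 had 999.96, 1198 and 1258 CPM in FXR+/+ and 1161, 928 and 982 in FXR-/- (-0.17 ± 0.16), a difference that was -0.36 without either female library, -0.092 without FXR-/- male 1 and -0.098 without FXR+/+ male 2. Usp29, a deubiquitinase that shares the Peg3 control region and is transcribed away from it, was steady at 15.8, 15.6 and 15.8 CPM in FXR+/+ and 18.2, 16.1 and 14.9 in FXR-/- (0.06 ± 0.11). The maternally expressed zinc finger gene Zim1 had 52.6, 59.8 and 51.4 CPM in FXR+/+ and 71.2, 40.3 and 39.0 in FXR-/-. Its female FXR-/- library was the highest of the 6 and its male FXR-/- libraries were the lowest.

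Gnas (chr2:174284320-174346744) had higher CPM in FXR-/- islets in every library, with 1291, 1176 and 1169 CPM in FXR+/+ and 1415, 1636 and 1408 in FXR-/-. The groups did not overlap, yet the test was not passed (0.30 ± 0.15, adjusted p = 0.501, and 0.166 with DESeq2). Gnas has alternative first exons of different parental origin, all spliced to a common body, and the exon table separates some of them. The exon that encodes the maternally expressed neuroendocrine secretory protein NESP55 (chr2:174284604-174285477, GRCm38 positions, plus strand) had 51.6, 46.3 and 29.6 CPM of exon counts in FXR+/+ and 40.9, 64.2 and 47.2 in FXR-/-. It overlaps with the antisense RNA Nespas. The first exon of the paternally expressed long form XL alpha s (chr2:174297859-174300217) had 10.3, 11.7 and 11.1 CPM in FXR+/+ and 10.6, 16.4 and 15.6 in FXR-/-.

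The region with the first exon of the main G protein subunit (chr2:174328108-174330434) had 230, 224 and 199 CPM of exon counts in FXR+/+ and 263, 314 and 239 in FXR-/- (0.32 ± 0.14, adjusted p = 0.638). It is the one among these alternative starts in which the genotypes did not overlap. The XL alpha s and NESP55 exons had differences of 0.35 ± 0.17 (adjusted p = 0.645) and 0.26 ± 0.23 (adjusted p = 0.748). The ratio of XL alpha s to NESP55 exon counts was 0.276 ± 0.090 in FXR+/+ and 0.282 ± 0.042 in FXR-/- (SD, n = 3 each), and the ratios overlapped. The last exon had 531 to 665 CPM in FXR+/+ and 681 to 719 in FXR-/-. Not all Gnas exons were higher, and those lower in FXR-/- with an unadjusted p under 0.05 are named below.

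All exon counts of a library summed to 32.3% to 36.6% of its gene counts, so the exon results here and above rest on fewer reads. Over all members, 312 exons of 40 genes were listed and 95 of them could be tested. None passed an adjusted p of 0.05 with edgeR, where 5 of 26998 exons did (0.0185%), and 14 (14.7%) had an unadjusted p under 0.05, beside 7.79% of all exons, and 12 of them were lower in FXR-/-, beside 3.1% of all exons. The first 3 of the 4 Nnat exons were among them. Exon 2 of Nnat had 3.99, 5.26 and 7.68 CPM of exon counts in FXR+/+ and 3.14, 1.74 and 1.86 in FXR-/- (-1.32 ± 0.35, adjusted p = 0.526). The groups did not overlap in exons 1, 2 and 3, which rest on 9 to 83 counts in a library. The last exon, with most of the reads, had 198, 181 and 229 CPM in FXR+/+ and 142, 202 and 142 in FXR-/- (-0.33 ± 0.16, adjusted p = 0.644), and overlapped through the male 1 FXR-/- library. The other exons with such a p belong to Gnas (exons 6, 7 and 10), Rian (6, 7 and 10), Impact (9 and 11), Igf2r (48), Plagl1 (6) and Ube3a (13). Of these, Gnas 6 and Igf2r 48 were the 2 higher ones, while Gnas 7 and 10 were lower in FXR-/-.

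**Figure D3:**
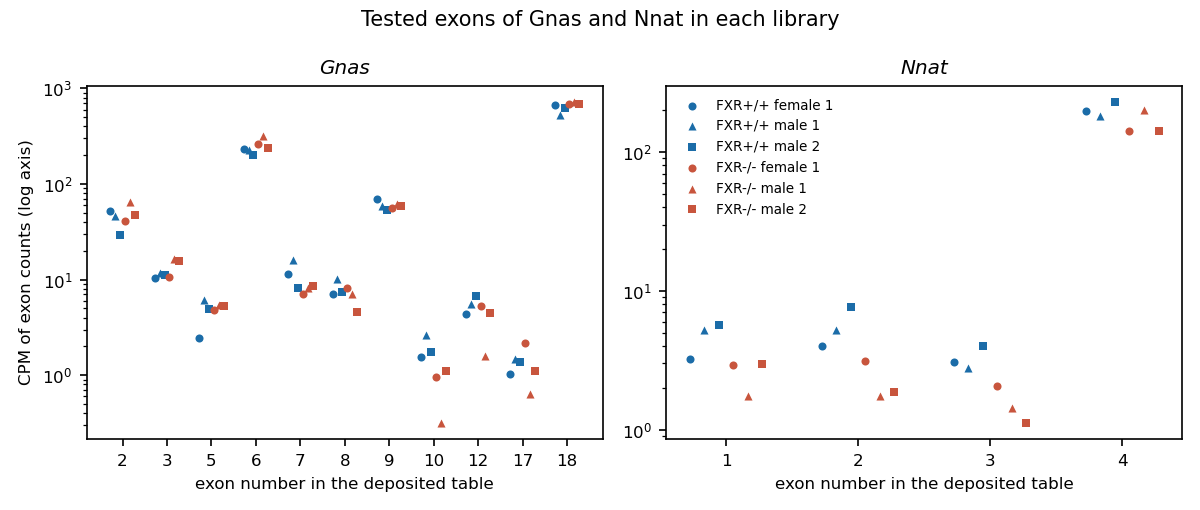
CPM of exon counts (log axis) of the tested exons of Gnas and Nnat by exon number in the deposited table, with 1 point per library, in blue for FXR+/+ and red for FXR-/-. In Nnat exons 1 to 3 the FXR-/- points lie below the FXR+/+ points, and in exon 4 they overlap.

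None of the growth pathway members passed an adjusted p of 0.05 between genotypes. Igf2r was at 132, 126 and 126 CPM in FXR+/+ and 144, 130 and 141 in FXR-/- (0.11 ± 0.07, adjusted p = 0.568). Its paternally expressed antisense RNA Airn was low, at 5.07 to 5.33 CPM in FXR+/+ and 3.58 to 5.47 in FXR-/- (-0.13 ± 0.19). Grb10 had 62.4, 52.9 and 52.1 CPM in FXR+/+ and 55.6, 56.1 and 51.4 in FXR-/- (-0.03 ± 0.08), and Igf2 differed by 0.03 ± 0.16. In the Kcnq1ot1 domain, the cell cycle inhibitor Cdkn1c differed by -0.03 ± 0.19 and the non-coding RNA Kcnq1ot1, with 22.98 to 33.9 CPM over the 6 libraries, by -0.06 ± 0.15. Slc22a18, an organic cation transporter of that domain, had 18 to 41 counts in a library and differed by 0.54 ± 0.31 (adjusted p = 0.542).

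On chromosome 6, Peg10 differed by 0.13 ± 0.32, its neighbour Sgce, a sarcoglycan, by 0.14 ± 0.12, and Asb4, a ubiquitin ligase adaptor, by 0.22 ± 0.20. Mest, a hydrolase-like growth gene, had 6.63 to 9.86 CPM in FXR+/+ and 5.95 to 9.36 in FXR-/- (-0.07 ± 0.21), and its neighbour Copg2, a coat protein of transport vesicles, 43.9 to 47.9 and 40.97 to 47.2 (-0.04 ± 0.09). Mest and Copg2 share 912 exon bases on opposite strands. Nap1l5 had 49.4, 60.9 and 27.9 CPM in FXR+/+ and 35.8, 55.1 and 48.3 in FXR-/-, a wide spread around a difference of -0.01 ± 0.28. Of the host pair on chromosome 2, H13 had 168, 181 and 181 CPM in FXR+/+ and 147, 265 and 210 in FXR-/- (0.20 ± 0.14, but 0.041 without the FXR-/- male 1 library and 0.39 without either female library), and the translation factor retrogene Mcts2, which lies in an H13 intron, differed by 0.03 ± 0.20.

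**Figure D4:**
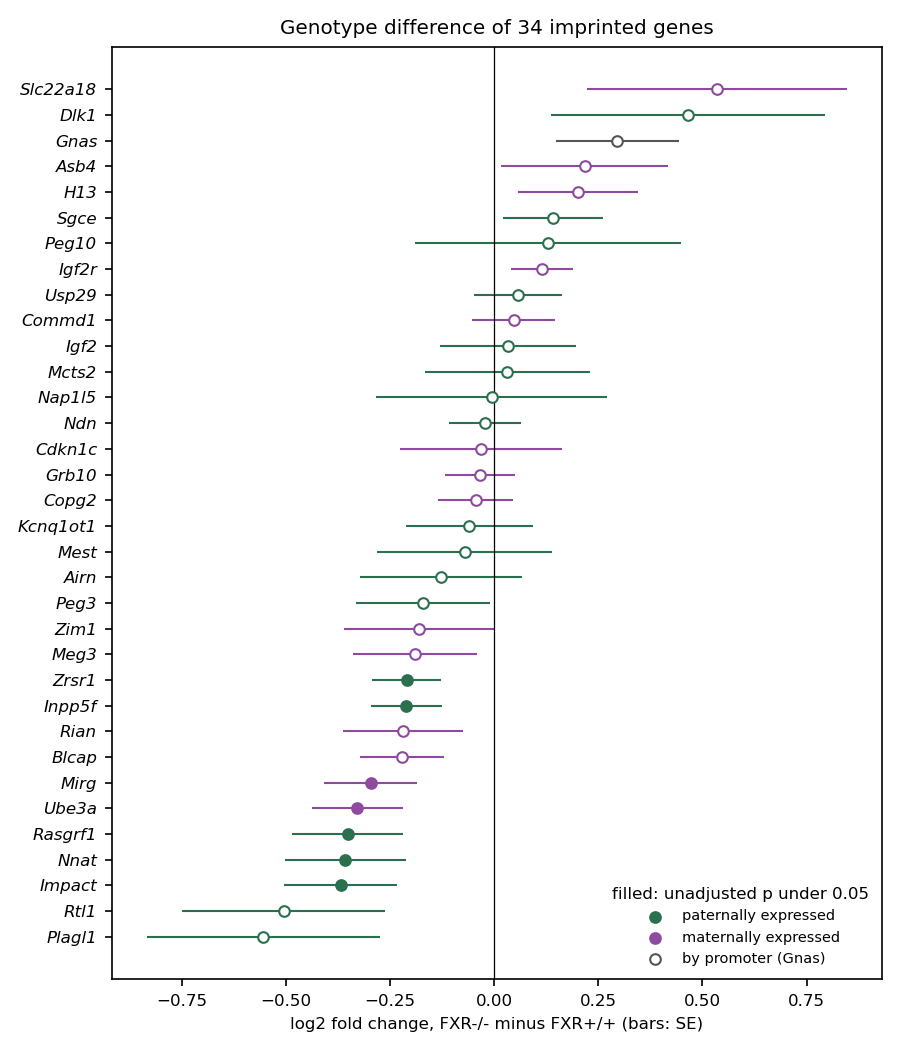
Log2 fold change of FXR-/- against FXR+/+ with its SE for the 34 tested imprinted genes, coloured by the parental allele assigned to each and filled where the unadjusted p was under 0.05. The values run from -0.55 (Plagl1) to 0.54 (Slc22a18), and the 7 filled points lie below 0.

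By the assigned parental origin, which was not tested in islets, the 19 tested paternally expressed members had a median log2 fold change of -0.07 (6 higher, 13 lower). The 14 maternally expressed members had one of -0.04 (5 higher, 9 lower). Unadjusted p-values under 0.05 were found for 5 of the 19 (26.3%) and 2 of the 14 (14.3%), beside 10.3% of all genes. A difference between the parental classes was not tested, and both medians lay within 0.1 of the median of all genes.

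Both genotypes held 1 female and 2 male libraries, so males (4) could be set against females (2) in the same fit. None of the 34 members passed an adjusted p of 0.05 for sex with edgeR, where 8 of 14619 genes did (0.0547%), nor with DESeq2. At an unadjusted p under 0.05 there were 6 members beside 7.48% of all genes. Sgce had 17.1 and 17.2 CPM in the females and 12.6, 10.5, 13.1 and 13.6 in the males (-0.46 ± 0.12, adjusted p = 0.552). Asb4, on the same domain of chromosome 6, had 4.86 and 5.23 CPM in females and 3.32, 2.30, 3.26 and 3.49 in males (-0.72 ± 0.21, adjusted p = 0.552). Cdkn1c, with 4.52 and 4.01 CPM in females, had 3.42, 2.59, 3.21 and 2.95 in males (-0.49 ± 0.20, adjusted p = 0.651).

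In these 3 genes every male library was below both female libraries, and in H13, with 168 and 147 CPM in females and 181, 181, 265 and 210 in males, every male library was above them (0.39 ± 0.15, adjusted p = 0.645). These were the 4 of 34 members without overlap between the sexes, beside 15.9% of all genes. Ube3a (-0.27 ± 0.11, adjusted p = 0.661) and Rtl1 (0.62 ± 0.27, adjusted p = 0.661) completed the 6, with overlapping libraries. Peg10, which lies next to Sgce and shares its control region, had a sex difference of 0.01 ± 0.34. Alpha cell markers (5 genes, none at 0) did not overlap between the sexes, at 37591 and 38202 CPM in the female and 21564 to 29994 in the male libraries. Beta cell markers (9 genes, none at 0) lay lower in females, at 186872 and 194426 CPM against 195409 to 271733 in males. For the beta cell markers the FXR+/+ female (194426) and FXR+/+ male 1 (195409) libraries were nearly equal. The part of either list in the differences of Sgce, Asb4, Cdkn1c and H13 was not tested.

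**Figure D5:**
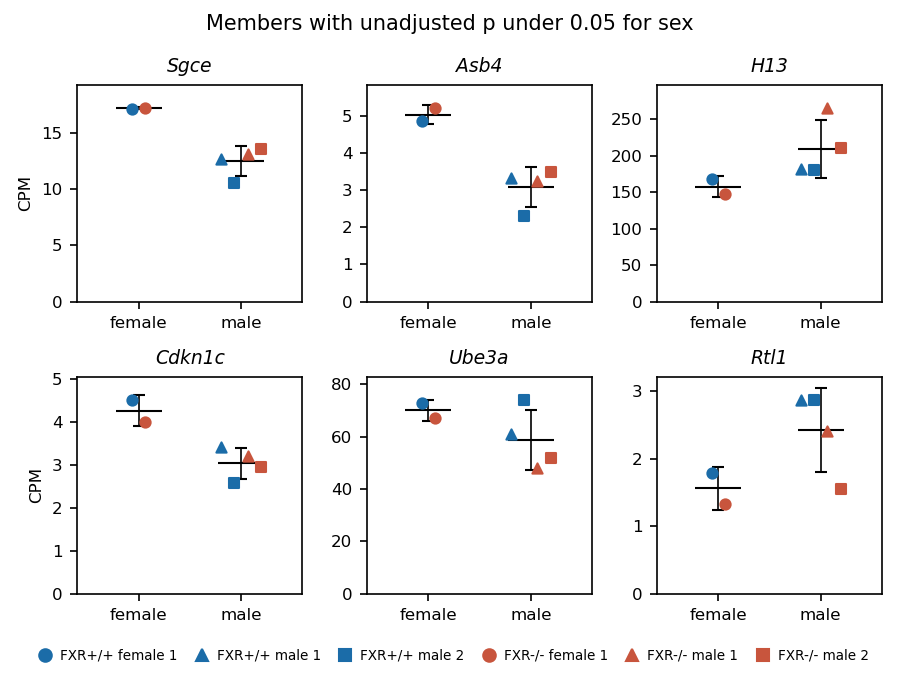
CPM in each library of the 6 members with an unadjusted p under 0.05 for sex, with the mean and SD of the 2 female and 4 male libraries as bars. Male libraries lie below both female libraries for Sgce, Asb4 and Cdkn1c, above them for H13, and overlap with them for Ube3a and Rtl1.

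The test of whether the genotype difference itself differs between the sexes rests on 1 female pair. No gene passed an adjusted p of 0.05 (lowest 1.00 among members), and 2 members had an unadjusted p under 0.05 beside 1.48% of all genes. Zim1 had the larger one, at -0.92 ± 0.20 on the log2 scale (adjusted p = 1.00), with 52.6 against 71.2 CPM in the females and lower values in the FXR-/- males as given above. H13 had an interaction of 0.58 ± 0.24 (adjusted p = 1.00), with FXR-/- below FXR+/+ in the females (147 against 168 CPM) and above it in the males.

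Further imprinted genes were taken from a list of 45, of which 32 could be tested. Of these, 7 had an unadjusted p under 0.05 (21.9% beside 10.3% of all genes), 5 higher and 2 lower in FXR-/- (directions that 6.18% and 4.15% of all genes took), and the median log2 fold change was -0.05. Th, the tyrosine hydroxylase of catecholamine synthesis, had 61.4, 79.9 and 83.2 CPM in FXR+/+ and 50.7, 63.5 and 63.2 in FXR-/- (-0.33 ± 0.07, adjusted p = 0.286 with edgeR and 0.0196 with DESeq2, the single call of that tool in this list). Its partner enzyme Ddc was at 323, 265 and 265 CPM in FXR+/+ and 332, 362 and 362 in FXR-/- (0.31 ± 0.11, adjusted p = 0.445). The others were Trappc9 (0.30 ± 0.09), Cd81 (0.27 ± 0.08), Ano1 (0.47 ± 0.15), Tfpi2 (0.98 ± 0.41) and Osbpl5 (-0.35 ± 0.11). Tfpi2 was very low, with 0.81, 0.35 and 0.22 CPM in FXR+/+ and 1.17, 0.79 and 0.63 in FXR-/-. Its genotypes overlapped (adjusted p = 0.478 with edgeR).

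Of 16 genes that keep imprints, such as the methyltransferase Dnmt1 and the zinc finger protein Zfp445, 12 were tested and none passed an adjusted p of 0.05 with edgeR or DESeq2, while 2 had an unadjusted p under 0.05 (16.7% beside 10.3% of all genes). Smchd1, a chromatin protein needed for silencing at several imprinted clusters, had 46.5, 34.6 and 45.9 CPM in FXR+/+ and 37.9, 30.7 and 32.8 in FXR-/- (-0.33 ± 0.12, adjusted p = 0.452). Arid4b was higher by 0.19 ± 0.08 (adjusted p = 0.469). Dnmt1 itself was at 35.6, 35.3 and 37.8 CPM in FXR+/+ and 36.1, 33.8 and 39.6 in FXR-/-, a difference of 0.01 ± 0.09. Dnmt3a was the most abundant of the 12, at 156 to 184 CPM in FXR+/+ and 146 to 179 in FXR-/-.

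Promoters were read for letters that bear on imprinting and on FXR. RefSeq promoters of 300 bases (GRCm38.p6) were given for 35 of the 41 members, 50 promoters in all. The letters TGCCGC, which the imprint keeper ZFP57 binds when methylated, stood on either strand in 14 of the 50 (28.0%), beside 11.6% of all 32851 promoters. The 14 are not all separate sequences. Snrpn and Snurf share an identical promoter (chr7:60005150-60005449), and Mest has nearly identical ones at chr6:30737800-30738099 and chr6:30737803-30738102. Member promoters were also richer in CG pairs, with a median of 14.5 beside 7 over all promoters. The nuclear receptor motif AGGTCA stood in 4 of the 50 (8.0%), beside 16.3% of all promoters, and its inverted repeat with a spacer of 1 base, the form that FXR binds with its partner RXR, stood in none of the 50 and in 3 of all promoters. A match is a description of these letters and not of a bound site.

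The promoters of Nnat and Igf2r are shown as an example of each match, with the matched letters in capitals, TGCCGC or its complement in Nnat (chr2:157559828-157560127, plus strand) and AGGTCA or its complement in Igf2r (chr17:12769657-12769956, minus strand).
Nnat promoter: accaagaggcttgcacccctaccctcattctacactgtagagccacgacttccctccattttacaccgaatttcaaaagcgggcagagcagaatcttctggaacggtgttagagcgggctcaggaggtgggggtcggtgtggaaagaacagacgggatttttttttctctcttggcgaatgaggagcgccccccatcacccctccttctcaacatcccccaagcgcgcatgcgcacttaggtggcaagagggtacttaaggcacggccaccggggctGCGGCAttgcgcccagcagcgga
Igf2r promoter: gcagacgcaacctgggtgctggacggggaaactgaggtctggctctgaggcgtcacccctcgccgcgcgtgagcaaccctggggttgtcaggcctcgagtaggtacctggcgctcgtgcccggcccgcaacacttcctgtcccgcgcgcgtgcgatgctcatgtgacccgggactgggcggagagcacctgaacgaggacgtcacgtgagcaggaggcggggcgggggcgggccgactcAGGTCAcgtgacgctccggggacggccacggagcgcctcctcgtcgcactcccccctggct
Of the 7 members with an unadjusted p under 0.05 for genotype, 6 had a promoter here, and Nnat was the one with TGCCGC and none held AGGTCA. Igf2r, with AGGTCA, differed by 0.11 ± 0.07 between genotypes.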

How the data were processed

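Poly(A) RNA of islets was sequenced in 6 libraries, grouped by the genotype and sex in the sample labels. The authors deposited raw read counts per gene and per exon, and HISAT is named in the submitters' processing notes. Aligner version, counting tool, strand setting and annotation were not given in the sources used here. Exon positions were those of GRCm38, where 84.0% of the member exons had the start and end of a GENCODE vM21 exon. The deposited tables with the authors' own DESeq comparison (means, fold changes, p-values) were not used.

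Library totals were 20629306 to 30139235 counts. Genes were kept with filterByExpr (minimum count 10) and tested with edgeR 4.0.16 in R 4.3.3 (TMM scaling, quasi-likelihood F test, terms for sex and genotype, Benjamini-Hochberg adjustment over all 14619 genes). CPM is the count per 1000000 of the TMM-scaled library. SE is the absolute log2 fold change divided by the square root of F. Exons were fitted likewise. Ratios were tested by exact permutation over the 20 splits of 3 against 3, on log2 ratios. Levels per length used exon unions of GENCODE vM21, matched by symbol. Scripts were tested on simulated data. Alternatives were DESeq2 1.42.0, other scalings, filters and terms, exon counts, and libraries left out.

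Libraries with the same replicate number (female 1, male 1, male 2) deviated together from their genotype means, with correlations of 0.373, 0.419 and 0.346 over all tested genes, so a fit with the replicate block was run. No pair of libraries agreed within sampling noise. Per-library values were given for the 10 highest members, those with an unadjusted p under 0.05 for genotype or sex, those whose genotypes did not overlap, and members of the same domain or host pair, with the others as ranges. The members and lists were chosen with earlier results of these data known.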

Additional observations from a re-analysis of the deposited data

How the results depend on the processing

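No member passed an adjusted p of 0.05 for genotype or sex in any alternative planned, and all 7 members of the genotype comparison stayed lower in FXR-/- in each of the 19 alternatives. The 7 were picked by their p in these same libraries, which every alternative used again, so the kept direction is not independent evidence. The count of members with an unadjusted p under 0.05 (7) was 1 with the acinar term (2.94% of members beside 7.71% of all genes) and 4 with exon counts summed per gene (12.1% beside 9.69%). It was 2 to 8 when single libraries were left out, with 2 without the FXR-/- male 2 library (5.88% beside 7.24%), 3 without FXR+/+ male 2 (8.82% beside 6.46%), 4 without FXR+/+ male 1 (11.8% beside 14.7%) and 4 without FXR-/- male 1 (11.8% beside 5.78%). The members thus fell below the share of all genes with the acinar term, without FXR-/- male 2 and without FXR+/+ male 1. With the replicate block it was 8, and the block changed no member's adjusted call. DESeq2 also gave 8.

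The median log2 fold change of -0.05 was -0.093 with the acinar term, -0.14 with library size alone (where the median of all genes was -0.09), -0.14 with exon counts, -0.060 without the 20 most abundant genes, -0.12 in males alone, -0.034 without both male 1 libraries, and -0.12 to -0.031 when single libraries were left out (the former without either female library, the latter without FXR+/+ male 1). Members higher in FXR-/- numbered 11 to 15 when libraries were left out. The median's spread over the 3 pairs was an SD of 0.007, so small shifts count as moves.

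Without both male 1 libraries, a choice made after seeing the data, 2 members passed an adjusted p of 0.05, among them Nnat at -0.60. Nap1l5 (-0.01) changed sign to 0.012 with no sex term, 0.058 with the replicate block, 0.0079 with exon counts, 0.22 in males alone, 0.16 without both male 1 libraries and between -0.33 and 0.29 when single libraries were left out. Cdkn1c (-0.03) was 0.042 in males alone and between -0.16 and 0.054 with libraries left out. The cause was not tested. For sex, 6 members with an unadjusted p under 0.05 became 3 with the legacy dispersion and 2 to 8 when single libraries were left out (2 without FXR-/- female, 3 without FXR+/+ female or FXR-/- male 2). With DESeq2, 3 of the 6 kept an unadjusted p under 0.05. The shares of all genes in these sex fits are not given here, so these counts have no background beside them. Over all genes, adjusted calls for genotype numbered 0 with edgeR, 6 with the acinar term, 4 with exon counts, 23 with the replicate block, 170 with DESeq2 and 235 without both male 1 libraries. Differences of H19, Dio3, Phlda2, Magel2 and Peg12 were not detectable at this depth, and Snurf and Snrpn were too low to test.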
